A study of Homo sapiens with 12 samples.

Results

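The comparison described here sets Raji cells that carried a hairpin against MBD2 beside Raji cells that carried a non-targeting hairpin. Its members are 6 of the 12 arrays of the series. Arrays were chosen by the labels: 4 shMBD2 arrays (hairpin A, replicates 1 and 2, and hairpin C, replicates 1 and 2) and 2 shNTC arrays (replicates 1 and 2), all named in the same way. Genes entered when a probe had a detection p under 0.05 on at least 2 of these 6 arrays, and each gene was read by the probe with the highest mean. This gave 11840 genes, of 13702 detected on at least 2 of all 12 arrays.

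Raji is an established B cell line from a human Burkitt lymphoma. Every group was transduced with a short hairpin RNA, selected with puromycin for 48 h and harvested for total RNA 3 days after transduction. The shMBD2 groups carried hairpin A (n = 2) or hairpin C (n = 2) against MBD2, and the shNTC group carried a non-targeting hairpin (n = 2). A further shNTC array, here called shNTC replicate 3, belongs to a second naming set together with 3 shMS4A1 and 2 shCREM arrays. Each shMS4A1 array and each shCREM array carried a different hairpin, though they are numbered below like replicates. The hairpins lower MBD2 and do not delete it, and in bulk RNA a change in all cells and a change in part of them cannot be told apart. Whether replicates were separate cultures is not stated, so the spread among replicates may be technical. Each p-value is set against a spread shared over all 12 arrays, which includes differences among the shMS4A1 hairpins and among the shCREM hairpins. Precision is limited by the few arrays. Levels below are log2 intensities after background correction and quantile normalization. A difference is shMBD2 (mean of hairpins A and C) minus shNTC, with its standard error from limma and p-values adjusted by Benjamini-Hochberg over the 11840 genes.

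MBD2 binds methylated CpG sites through its methyl-CpG binding domain and brings the NuRD complex, which combines histone deacetylases with chromatin remodelling ATPases, to methylated promoters. It is best known as a repressor of genes whose promoters are methylated. MS4A1, the gene for the B cell surface protein CD20 that rituximab binds, is the gene whose regulation the series title names.

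The control arrays stood apart before any gene was considered. On the first principal component of the 6 arrays, which held 47.7% of the variance, the shMBD2 arrays lay between -14.6 and -12.7, shNTC replicate 1 at 42.8 and shNTC replicate 2 at 11.4. Across genes, which are not independent replicates, the shMBD2 arrays correlated at 0.9883 to 0.9919, with values across hairpins as high as within them, and shNTC replicate 1 correlated with the other 5 arrays at 0.9691 to 0.9784. That array also had the fewest detected probes, 18652 of 48105, against 19614 to 20195 on the other 5. The SD of the difference between replicates was 0.35 for hairpin A, 0.32 for hairpin C and 0.47 for shNTC (log2, over genes). The replicate 3 shNTC array had a median raw intensity of 104.87, against 76.92 to 86.81 in the 6 arrays. Its level is given below for many genes, though not all, as a second look at the control. Where it is left out, it may lie with either group. The naming set is not told apart from the array.

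Markers of the cell line were high on all 7 arrays. CD74 was at 13.41 to 13.84 and CD79B at 13.21 to 13.53. HLA-DRA was at 13.30 to 13.77. Of the T and NK cell markers 8 of 23 were measured, of the myeloid markers 6 of 19, and of the epithelial and fibroblast markers 7 of 19, and none of these passed the test. Over all genes 3.73% passed, so none in lists this short is near the overall share.

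The targeted gene was lower on every shMBD2 array. MBD2 (ILMN_1750395) was at 5.78 and 5.50 with hairpin A and 5.92 and 5.38 with hairpin C, against 7.22 and 7.61 on the shNTC arrays. No shMBD2 array reached the lower shNTC array, and shNTC replicate 3 was at 7.03. MBD2 fell by 1.77 ± 0.24 on the log2 scale (3.41-fold, n = 4 against 2, limma adjusted p = 0.00112). The size of the fall depended on the processing: it was -0.93 with the authors' processed values, -0.99 with no background correction and -1.28 with an offset of 50, all past the threshold. MBD2 passed the test in all 25 alternative settings, and the hairpins differed by -0.01 (A minus C). The 3 other MBD2 probes on the array were detected on at most 1 of the 6 arrays and give no second reading.

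MS4A1 was higher under shMBD2 at its brighter probe, with a smaller margin. Probe ILMN_1776939 read 7.90 and 7.67 with hairpin A and 7.40 and 7.68 with hairpin C, against 7.11 and 6.24 on the shNTC arrays, so the groups did not overlap. The shNTC arrays were farther from each other than any 2 shMBD2 arrays, and shNTC replicate 3, at 7.35, lay just below the lowest shMBD2 array. MS4A1 rose by 0.99 ± 0.24 log2 (1.98-fold, limma adjusted p = 0.0328). The second probe, ILMN_2401714, gave 0.52 ± 0.23 and did not pass (limma adjusted p = 0.208). It read 7.34, 6.89, 6.59 and 7.13 under shMBD2, against 6.64 and 6.29 on the shNTC arrays and 8.06 on shNTC replicate 3, so the groups overlapped at this probe. At the brighter probe the difference was 1.43 without shNTC replicate 1 (limma adjusted p = 0.034) and 0.56 without shNTC replicate 2, which did not pass (limma adjusted p = 0.158). It also missed the threshold when any 1 of the shMBD2 arrays was left out (limma adjusted p = 0.0695 to 0.108) and against all 3 shNTC arrays with no set term (0.76, limma adjusted p = 0.2). It passed in 14 of 25 settings.

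**Figure D1:**
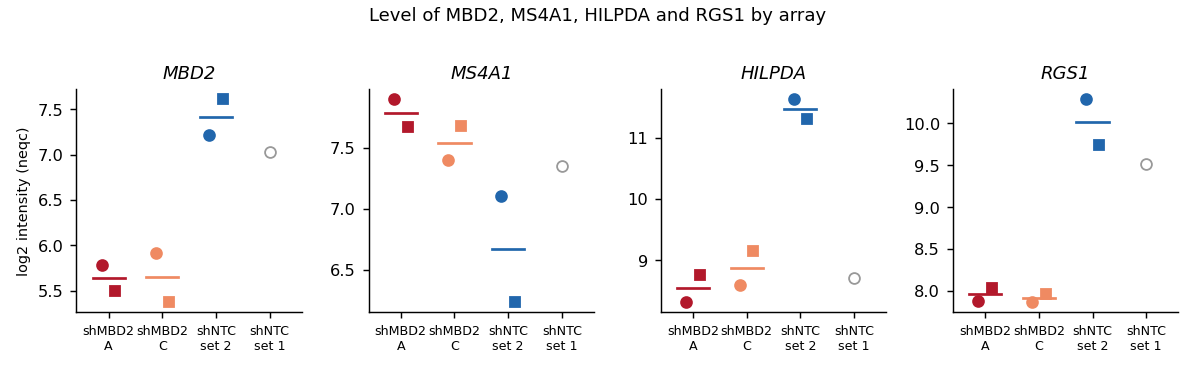
Log2 intensity of MBD2, MS4A1, HILPDA and RGS1 on each array: shMBD2 hairpins A and C, shNTC replicates 1 and 2 (set 2), and shNTC replicate 3 (set 1, open point). Circles and squares are replicates 1 and 2 and lines are group means. MBD2 was lower on all 4 shMBD2 arrays than on all 3 shNTC arrays, and HILPDA was high only on the 2 set 2 shNTC arrays among the arrays drawn.

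Over all genes, 442 passed the limma test (3.73% of those tested), 235 higher (1.98%) and 207 lower (1.75%) under shMBD2. The median difference over all genes was 0.04. Unadjusted p was under 0.05 for 2339 genes (19.8%). All 442 differed from the shNTC mean in the same direction on 4 of 4 shMBD2 arrays. The 235 that rose and 206 of the 207 that fell did not overlap between the groups, a pattern found for 18.3% of all genes upward and 13% downward. Both patterns are close to fixed by the selection of these genes on the same arrays, so they are no separate support. The median change was 0.93 among the genes that rose and -1.0 among those that fell.

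The hairpins gave like results. Hairpin A alone had 148 genes passing (1.25%), 72 higher (0.608%) and 76 lower (0.642%), and hairpin C alone 155 (1.31%), 78 higher (0.659%) and 77 lower (0.65%). Both rest on the same shNTC arrays. In the direct test of hairpin A against hairpin C, which needs no control, limma called 0 genes, with 234 genes (1.98%) at an unadjusted p under 0.05, and the means of the hairpins differed by an SD of 0.22 over genes. Among the 442 genes, 2 that rose and 1 that fell had an unadjusted p under 0.05 between the hairpins.

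The number of genes depended on the control arrays. Without shNTC replicate 1, 29 genes passed, 28 of them among the 442. Without shNTC replicate 2, 1120 passed, with 358 shared. Against all 3 shNTC arrays with no term for the naming set, a setting chosen after seeing the data, 46 passed, all among the 442. In 188 of the 235 genes that rose (80%) and 161 of the 207 that fell (77.8%), shNTC replicate 1 was farther from the shMBD2 mean than replicate 2. The share over all genes was not counted for this, and the genes were called on the same arrays, so it is no separate finding. The level on shNTC replicate 3 was nearer to the shMBD2 mean than to the mean of shNTC replicates 1 and 2 in 164 of the genes that rose (69.8%) and 158 of those that fell (76.3%), against 57.4% of all genes. The same held for the mean of the shMS4A1 and shCREM arrays in 149 and 158 of them, with no share over all genes counted. The genes were selected for lying far from shNTC replicates 1 and 2, so part of any excess is fixed by the selection. Between the control arrays and the hairpin, the part of each in these calls was not tested.

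**Figure D2:**
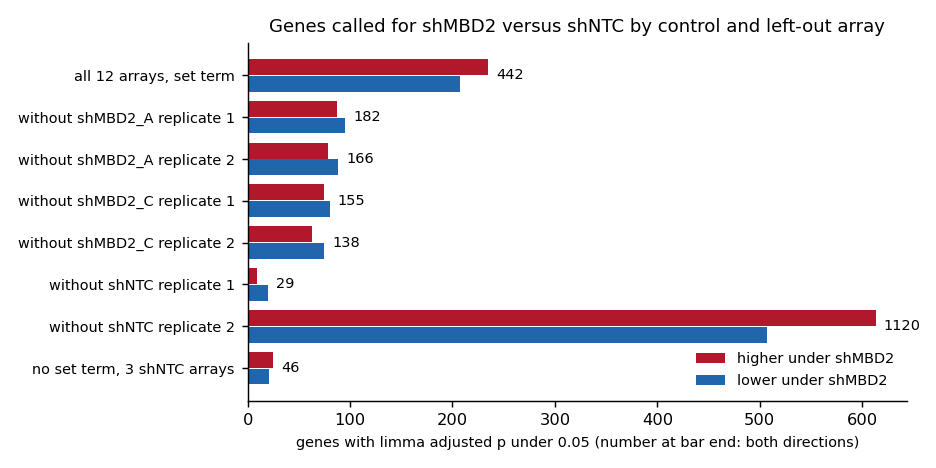
Genes with a limma adjusted p under 0.05 for shMBD2 versus shNTC, higher and lower under shMBD2, when each shMBD2 or set 2 shNTC array was left out, and with all 3 shNTC arrays and no set term. The number at the bar end is the sum of both directions: 29 genes without shNTC replicate 1 and 1120 without shNTC replicate 2, against 442 with every array.

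The 4 largest fitted falls were those of BHLHE40, HILPDA, ANKRD37 and DDIT4, all genes of the hypoxia response. The response consists of genes induced by HIF, the transcription factor that is stabilised when oxygen is low, and they include enzymes that shift metabolism to glycolysis. Of 37 genes on the list 23 were measured, and 12 of these fell and 0 rose (52.2% called, against 3.73% of all genes), with a median difference of -0.82. The list was drawn up with earlier results of these data known. Members below their shNTC mean numbered 20 of 23.

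HILPDA, a lipid droplet protein induced by hypoxia, stood at 8.32, 8.75, 8.59 and 9.15 under shMBD2, against 11.63 and 11.30 in shNTC. The groups lay well apart, and shNTC replicate 3, at 8.70, lay among the shMBD2 arrays. The shMS4A1 and shCREM arrays, at 8.23 to 9.08, also lay below shNTC replicates 1 and 2. HILPDA fell by 2.76 ± 0.19 (6.79-fold, limma adjusted p = 2.29e-06).

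BHLHE40, a transcriptional repressor of the circadian and hypoxia responses, was at 4.43, 4.50, 4.39 and 4.60 under shMBD2, against 8.25 and 6.59 in shNTC, with 5.38 on shNTC replicate 3. It was detected on 1 of 4 shMBD2 arrays, so its level there was near background. It fell by 2.94 ± 0.35 (limma adjusted p = 0.000542), but with levels this close to background the size is loosely set. BHLHE40 met the detection filter only with the shNTC arrays, where it is high, so this adjusted p is no separate support. Over the settings BHLHE40 ran from -3.78 without shNTC replicate 2 to -1.41, with -2.14 without shNTC replicate 1. Its promoter window, and those of 3 other genes that fell, are printed here because they hold ACGTG, a form of the 5-letter core of the HIF binding element. This form was read on either strand as ACGTG or CACGT, shown in capitals, so that CACGTG counts on both strands. The form GCGTG was not counted. The windows run 5′ to 3′ along the gene from 250 bases before to 50 after its start (RefSeq, GRCh38.p14).
BHLHE40, chr3:4979187-4979486, plus strand: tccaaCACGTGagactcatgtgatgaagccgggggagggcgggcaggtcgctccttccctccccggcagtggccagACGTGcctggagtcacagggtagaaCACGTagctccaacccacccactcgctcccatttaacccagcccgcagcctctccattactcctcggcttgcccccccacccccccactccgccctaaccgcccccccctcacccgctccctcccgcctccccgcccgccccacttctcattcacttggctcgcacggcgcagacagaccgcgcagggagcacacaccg
ANKRD37, chr4:185396591-185396890, plus strand: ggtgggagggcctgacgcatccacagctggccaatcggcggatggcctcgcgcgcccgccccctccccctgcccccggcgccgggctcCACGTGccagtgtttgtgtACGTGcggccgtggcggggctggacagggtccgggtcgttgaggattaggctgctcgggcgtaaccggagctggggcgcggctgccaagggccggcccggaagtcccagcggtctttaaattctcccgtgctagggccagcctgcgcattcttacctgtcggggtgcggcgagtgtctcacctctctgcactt
DDIT4, chr10:72273674-72273973, plus strand: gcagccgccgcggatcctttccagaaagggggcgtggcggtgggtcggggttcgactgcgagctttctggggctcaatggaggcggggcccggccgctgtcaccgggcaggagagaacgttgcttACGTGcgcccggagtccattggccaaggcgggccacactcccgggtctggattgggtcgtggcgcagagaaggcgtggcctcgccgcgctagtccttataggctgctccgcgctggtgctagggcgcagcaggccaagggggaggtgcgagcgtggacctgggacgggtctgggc
HK2, chr2:74833877-74834176, plus strand: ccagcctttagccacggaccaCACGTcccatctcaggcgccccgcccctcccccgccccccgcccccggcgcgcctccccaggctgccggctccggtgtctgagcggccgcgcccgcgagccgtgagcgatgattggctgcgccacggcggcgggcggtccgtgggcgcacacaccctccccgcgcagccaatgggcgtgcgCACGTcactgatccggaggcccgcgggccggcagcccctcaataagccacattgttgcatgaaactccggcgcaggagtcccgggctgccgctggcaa

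The core in its ACGTG form, the only form counted here, was found 4 times in the BHLHE40 window and 3 times in that of ANKRD37. It was found once in that of DDIT4 and 2 times in that of HK2. Of the 12 hypoxia genes that fell, 11 had a window in the table and 7 of these held the core (63.6%). Among all 18 measured members with a window 9 held it (50%), and it was in 27.1% of the windows of the 9362 tested genes that have one and in 21.6% of all 27305 windows. Of the genes that fell at large 47 of 160 windows held it (29.4%), against 40 of 164 (24.4%) for those that rose. Most members of the list were put on it as known HIF targets, others as parts of the pathway (HIF1A, ARNT, VHL and HIF1AN), so its share is not a separate finding. SLC2A1, which also fell, had no ACGTG in its window, though GCGTG occurs there. CpG sites, where MBD2 binds when methylated, had a median number of 28 in the windows of genes that fell, 25 in those of genes that rose and 26 in those of all tested genes.

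ANKRD37, an ankyrin repeat protein induced by HIF, was at 5.76, 6.32, 6.24 and 6.53 under shMBD2, against 9.33 and 8.16 in shNTC, and at 5.64 on shNTC replicate 3. It fell by 2.53 ± 0.29 (limma adjusted p = 0.000517). DDIT4, an inhibitor of mTORC1 that stress and hypoxia induce, was between 9.89 and 10.59 on the 4 shMBD2 arrays, against 12.67 and 12.11 in shNTC, and at 9.13 on shNTC replicate 3. In both genes replicate 3 was below every shMBD2 array, on the far side from the other shNTC arrays. The shMS4A1 and shCREM arrays were there too, at 5.35 to 5.73 for ANKRD37 and 7.86 to 8.85 for DDIT4. DDIT4 fell by 2.13 ± 0.26 (limma adjusted p = 0.000709).

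EGLN1, the oxygen-sensing prolyl hydroxylase that marks HIF for destruction and is itself a HIF target, was at 6.48, 6.36, 6.54 and 6.62, against 8.68 and 7.97 in shNTC and 5.89 on shNTC replicate 3. It fell by 1.82 ± 0.29 (limma adjusted p = 0.00323). P4HA1, a collagen prolyl hydroxylase subunit, was at 8.71, 8.82, 8.65 and 8.67, against 10.62 and 9.67 in shNTC, and fell by 1.43 ± 0.22 (limma adjusted p = 0.00305). PFKFB4, which sets the level of a glycolysis activator, fell by 1.39 ± 0.18 (limma adjusted p = 0.000837). KDM3A, a histone demethylase induced by hypoxia, fell by 1.49 ± 0.30 (limma adjusted p = 0.015). The remaining falls were ADM (by 1.21), FAM162A (by 1.12), ERO1A (by 0.94) and PFKFB3 (by 0.79). HIF1A itself was at -0.29 ± 0.18 (limma adjusted p = 0.395) and VEGFA at -0.33 ± 0.24 (limma adjusted p = 0.475), and neither passed.

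The hypoxia falls depended on the control used. Without shNTC replicate 2, 12 fell with a deeper median (-0.98), and HILPDA had -2.92, ANKRD37 -3.12 and DDIT4 -2.41. Without shNTC replicate 1, 6 fell (median -0.70), and HILPDA had -2.60, ANKRD37 -1.95 and DDIT4 -1.85. Against all 3 shNTC arrays with no set term, 1 fell (median -0.61). BHLHE40 was called in both settings, while HILPDA had -1.84 with no set term and missed the threshold (limma adjusted p = 0.108). DDIT4 had -1.04 (limma adjusted p = 0.452) and ANKRD37 -1.50 (limma adjusted p = 0.275) there.

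**Figure D3:**
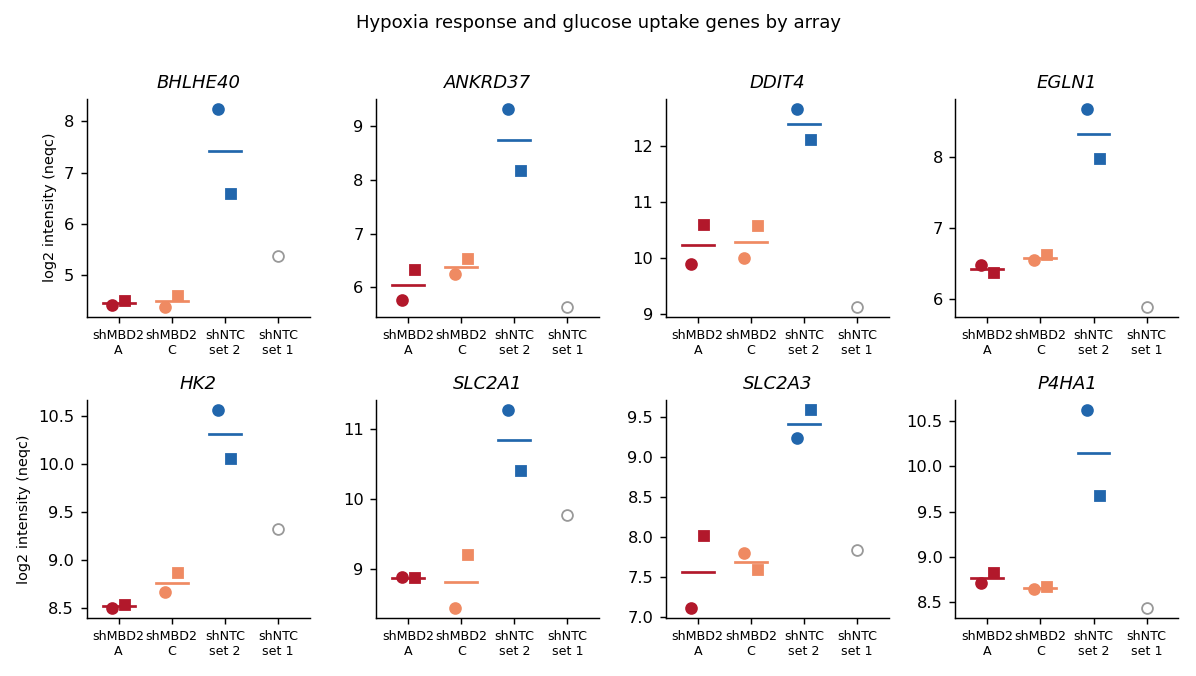
Log2 intensity of 8 hypoxia response and glucose uptake genes by array: shMBD2 hairpins A and C, shNTC replicates 1 and 2 (set 2), and shNTC replicate 3 (set 1, open point). Lines are group means. All shMBD2 arrays lie below both set 2 shNTC arrays, and shNTC replicate 3 lies near or below the shMBD2 arrays for ANKRD37, DDIT4, EGLN1 and P4HA1, and between the groups for HK2 and SLC2A1.

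Glycolysis and glucose transport gave 4 falls and 0 rises among 24 genes (16.7% called, against 1.75% of all genes lower), with a median of -0.32. Without shNTC replicate 2, 8 fell (median -0.47), without shNTC replicate 1, 3 fell (median -0.21), and with 3 shNTC arrays and no set term, 2 fell (median -0.14). HK2, the hexokinase that starts glycolysis, was at 8.50, 8.53, 8.66 and 8.86 under shMBD2, against 10.56 and 10.05 in shNTC, and at 9.32 on shNTC replicate 3. HK2 fell by 1.67 ± 0.16 (3.18-fold, limma adjusted p = 0.000146). SLC2A1, the glucose transporter GLUT1, was at 8.89, 8.87, 8.45 and 9.20, against 11.28 and 10.41 in shNTC, with 9.78 on shNTC replicate 3. For both genes every shNTC array, replicate 3 included, was above every shMBD2 array, and both passed in all 25 settings. SLC2A1 fell by 1.99 ± 0.24 (3.98-fold, limma adjusted p = 0.000542).

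SLC2A3, the transporter GLUT3, was at 7.11, 8.01, 7.80 and 7.58, against 9.24 and 9.59 in shNTC, and fell by 1.80 ± 0.27 (limma adjusted p = 0.00262). Its level on shNTC replicate 3, 7.84, was within the shMBD2 range. GBE1, the glycogen branching enzyme, fell by 0.87 ± 0.18 (limma adjusted p = 0.0177). The enzymes of the later steps did not pass: LDHA was at -0.16 ± 0.10 and GAPDH at -0.16 ± 0.11 (limma adjusted p = 0.387 and 0.443).

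Some regulators of B cell positioning fell too, with 4 falls and 0 rises among 17 chemokine receptors and RGS regulators (median -0.51). That is 23.5% called, against 3.73% of all genes. RGS1, which shuts off chemokine receptor signals, was at 7.88, 8.03, 7.87 and 7.96 under shMBD2, against 10.29 and 9.74 in shNTC. The shNTC replicate 3 array, at 9.51, lay with the other controls. RGS1 fell by 2.08 ± 0.25 (4.22-fold, limma adjusted p = 0.000573) and passed in all 25 settings. In the other naming set RGS1 ranged more widely, at 6.63 to 7.75 on the shMS4A1 arrays and 10.33 on both shCREM arrays.

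GPR183, the oxysterol receptor that guides B cells in follicles, fell by 1.46 ± 0.28 (limma adjusted p = 0.0113). CCR7, the receptor for the lymph node chemokines, fell by 0.79 ± 0.18 (limma adjusted p = 0.0262), and RGS19 by 0.80 ± 0.18 (limma adjusted p = 0.0242). CXCR4 and CXCR5 had -0.44 and -0.51 and did not pass. Of this list only RGS1 passed without shNTC replicate 1.

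Surface antigens of B cells moved in both directions, with 1 rise and 4 falls among 31 (16.1% called, against 3.73% of all genes). The rise was MS4A1. CD79A, the signalling chain of the B cell receptor, was at 11.58, 11.25, 11.19 and 11.33 under shMBD2, against 12.38 and 12.04 in shNTC and 11.80 on shNTC replicate 3. It fell by 0.87 ± 0.13 (1.83-fold, limma adjusted p = 0.00227), while its partner CD79B had 0.15 ± 0.10 and did not pass.

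SLAMF1, a receptor of the signalling lymphocyte activation family, was at 7.42, 7.16, 7.25 and 7.22, against 8.64 and 9.08 in shNTC and 7.99 on shNTC replicate 3. It fell by 1.60 ± 0.31 (limma adjusted p = 0.0113). SLAMF6, of the same family, fell by 0.86 ± 0.16 (limma adjusted p = 0.0106). TNFRSF13C, the BAFF receptor, fell by 1.49 ± 0.39 (limma adjusted p = 0.045), and that value leaned on shNTC replicate 1, at 9.40, with replicate 2 at 7.46. Without shNTC replicate 1, MS4A1 passed and 0 of the 31 fell. No B cell transcription factor passed among 22 measured. Of the MHC class II genes 0 of 14 passed. With 3.73% of all genes called, such counts in lists this short are near the overall share.

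Of 13 NuRD subunits MBD2, the target itself, fell and RBBP4, a histone-binding subunit, rose (15.4% called, against 3.73% of all genes). The rise of RBBP4 was 0.67 ± 0.17 (limma adjusted p = 0.0416). RBBP4 was at 9.16, 9.03, 9.26 and 9.14, against 8.30 and 8.65 in shNTC and 9.13 on shNTC replicate 3. With the mean of all its detected probes its value was -0.03, so the direction belongs to the single probe. The deacetylases HDAC1 and HDAC2 had -0.06 and 0.07, and the remodelling ATPase CHD4 had -0.13. Other readers of methylated DNA did not pass, with MBD1 at 0.75 (limma adjusted p = 0.0666) and UHRF1 at 0.51 (limma adjusted p = 0.284). Of 9 enzymes of DNA methylation and demethylation 0 passed, and of 12 cancer-testis and germline genes, which methylated promoters keep silent in most tissues, 0 passed (median -0.02). With 3.73% of all genes called, counts of 0 in lists this short are near the overall share.

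**Figure D4:**
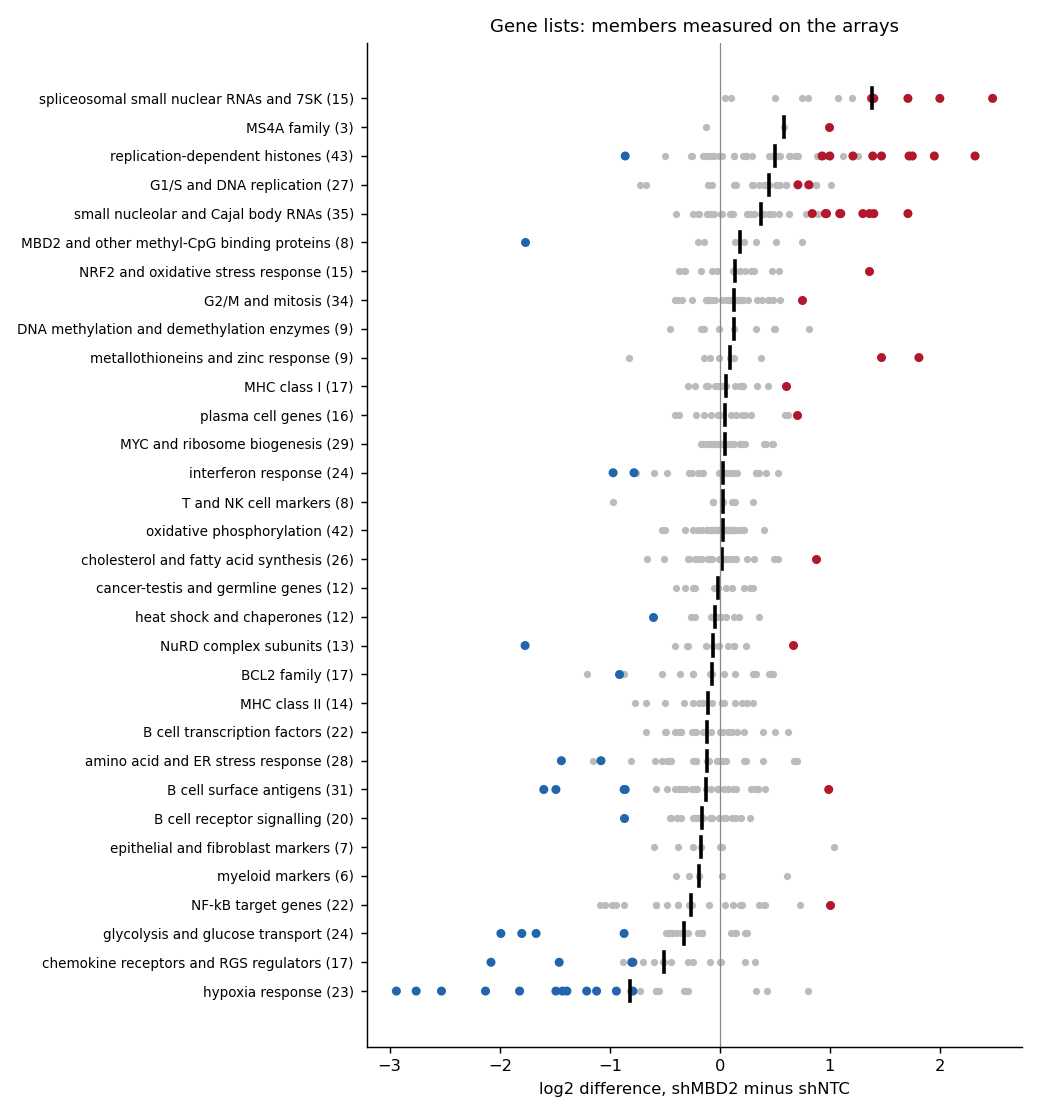
Log2 difference, shMBD2 minus shNTC, of every measured member of the 32 gene lists drawn, with the number measured in brackets. Red and blue points passed limma's test at adjusted p under 0.05 (higher, lower), grey points did not, and the black bar is the list median. The hypoxia list is farthest left (median -0.82) and the list of small nuclear RNAs farthest right (1.38).

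The largest rise was that of a small nuclear RNA. The list of spliceosomal small nuclear RNAs and 7SK had 7 rises and 0 falls among 15 measured (median 1.38), and all 15 were above 0. That is 46.7% called, against 3.73% of all genes. These RNAs form the cores of the spliceosome and related particles. RNU6ATAC, the U6atac RNA of the minor spliceosome, was at 8.38, 7.83, 8.12 and 8.27 under shMBD2, against 5.33 and 6.0 in shNTC. It rose by 2.48 ± 0.34 (5.6-fold, limma adjusted p = 0.00118), and shNTC replicate 3 stood at 8.39, level with the shMBD2 arrays. The shMS4A1 and shCREM arrays, at 7.08 to 8.58, also lay above shNTC replicates 1 and 2.

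RNU4-1, the U4 RNA, was at 7.86, 7.26, 7.55 and 7.63, against 5.56 and 6.17 in shNTC and 7.64 on shNTC replicate 3, and rose by 1.71 ± 0.31 (limma adjusted p = 0.00772). VTRNA1-1, a vault RNA, was at 7.58, 7.25, 7.41 and 7.38, against 5.0 and 5.83 in shNTC and 7.28 on shNTC replicate 3, and rose by 2.00 ± 0.36 (limma adjusted p = 0.00772). RNU11, of the minor spliceosome, rose by 1.40 ± 0.23 (limma adjusted p = 0.00408), and RNU1-1 by 1.38 ± 0.22 (limma adjusted p = 0.00408). RN7SK, the RNA that holds the elongation factor P-TEFb inactive, rose by 1.39 ± 0.36 (limma adjusted p = 0.0452). RN7SL1, the RNA of the signal recognition particle, had 0.05 ± 0.10 and did not pass.

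Of 35 small nucleolar and Cajal body RNAs, which guide modification of ribosomal and spliceosomal RNA, 9 rose and 0 fell (median 0.37). That is 25.7% called, against 3.73% of all genes. Leaving out shNTC replicate 1, 1 rose (median 0.30), and with 3 shNTC arrays and no set term, 2 rose (median 0.24). SNORA61 was at 10.78, 10.63, 10.77 and 10.56, against 8.99 and 9.78 in shNTC and 10.09 on shNTC replicate 3, and rose by 1.30 ± 0.18 (2.46-fold, limma adjusted p = 0.00133). SNORD31 was at 8.41, 8.31, 8.52 and 8.12, against 6.97 and 7.07 in shNTC and 7.41 on shNTC replicate 3, and rose by 1.32 ± 0.19 (limma adjusted p = 0.00196). Both lay above all 3 shNTC arrays on every shMBD2 array and passed in all 25 settings. TMEM107 rose by 2.18 ± 0.29 (limma adjusted p = 0.00112), and the gene of the U8 RNA, SNORD118, overlaps it, so the reading cannot be assigned to either one.

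By annotated gene type, 9 of 14 snRNAs rose (64.3%, median 1.39) and 17 of 176 snoRNAs rose (9.66%), against 190 of 10916 protein-coding genes (1.74%). Of the snoRNAs 1 fell, SNORD38B, which is not on the list (by 1.24 ± 0.20, limma adjusted p = 0.00408). SNORD38B missed the detection filter without shNTC replicate 1 and was tested in 22 of 25 settings, so its adjusted p is no separate support. The 17 snoRNA rises became 2 without shNTC replicate 1 and 2 with 3 shNTC arrays and no set term. Without shNTC replicate 1, 0 of the 14 snRNAs passed at a median of 1.19, and with 3 shNTC arrays and no set term 1 passed at a median of 0.87. Most of these RNAs come from near-identical copies, so a probe may read several of them.

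**Figure D5:**
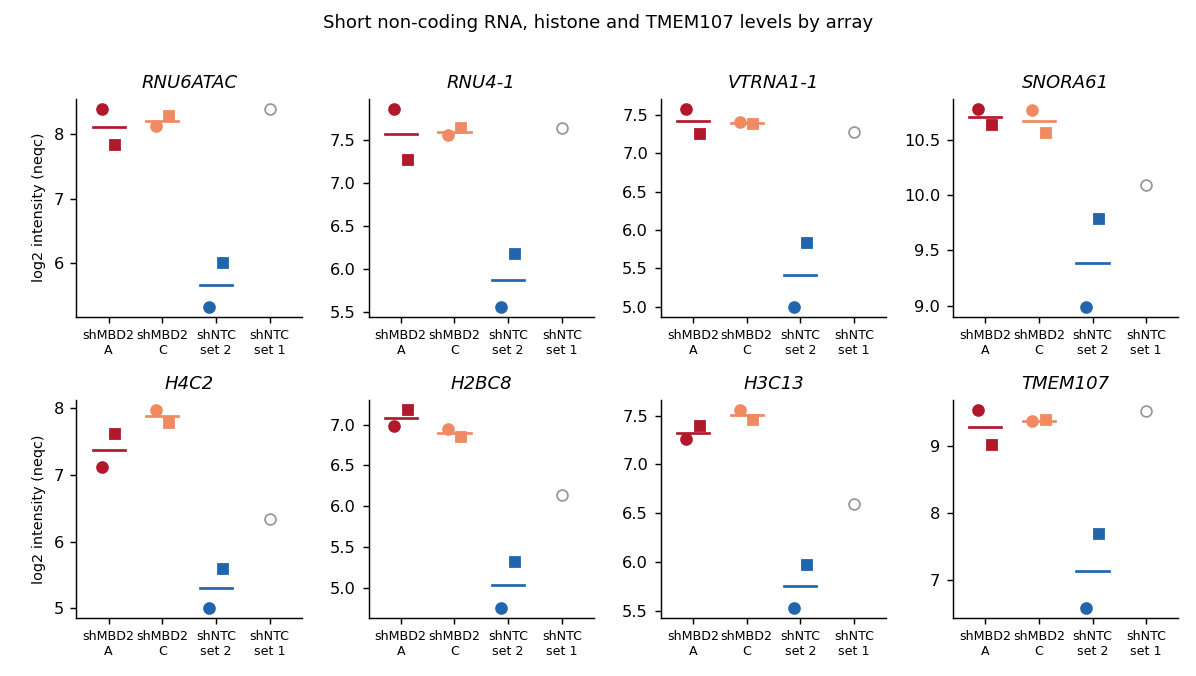
Log2 intensity of 4 short non-coding RNAs, 3 histone genes and TMEM107 by array: shMBD2 hairpins A and C, shNTC replicates 1 and 2 (set 2), and shNTC replicate 3 (set 1, open point). Lines are group means. All shMBD2 arrays lie above both set 2 shNTC arrays, and shNTC replicate 3 is level with the shMBD2 arrays for RNU6ATAC, RNU4-1 and TMEM107 and between the groups for the histone genes.

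Replication-dependent histone genes carry a stem-loop in place of a poly(A) tail on their messages, which build up in S phase. The list of them, which does not hold every such gene, had 9 rises and 1 fall among 43 (median 0.50). That is 23.3% called, against 3.73% of all genes. Of the histone genes not on it H3C13 (1.67), H3C14 (1.36), H3C15 (1.20) and H2BC18 (1.04) also rose (limma adjusted p = 0.00408, 0.0293, 0.0202 and 0.0125), as did H3-3B, of the replication-independent histone H3.3 (0.99, adjusted p = 0.0273). H4C2 was at 7.12, 7.61, 7.97 and 7.78, against 5.01 and 5.59 in shNTC and 6.34 on shNTC replicate 3, and rose by 2.32 ± 0.31 (4.99-fold, limma adjusted p = 0.00117). H2BC8 was at 6.98, 7.18, 6.94 and 6.85, against 4.76 and 5.32 in shNTC and 6.14 on shNTC replicate 3, and rose by 1.95 ± 0.34 (limma adjusted p = 0.00624). H2AC12 rose by 1.72 ± 0.25 (limma adjusted p = 0.00227) and H3C7 by 1.75 ± 0.36 (limma adjusted p = 0.015). In shNTC H2AC12 was at 4.50 and 4.87 and H3C7 at 4.62 and 6.34, each detected on only 1 of these arrays. Both met the detection filter only with the shMBD2 arrays, where they are high, so these adjusted p-values are no separate support. On shNTC replicate 3 they were at 5.70 and 6.99, below every shMBD2 array. The fall was H2AC25, by 0.86 ± 0.22 (limma adjusted p = 0.0452). Histone genes are close copies of one another, so a probe may read more than 1 of them. Of the 43, 0 passed without shNTC replicate 1 (median 0.44), and with 3 shNTC arrays and no set term 2 of them rose (median 0.42). H3C13 passed in the second of these settings and not in the first.

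For other S phase genes the count turned on the control. Of 27 genes of G1/S and DNA replication 23 were above 0 (median 0.45) and 2 rose (7.41% called, against 3.73% of all genes). They were MCM5 of the replicative helicase by 0.71 ± 0.16 (limma adjusted p = 0.0225) and the licensing factor CDT1 by 0.81 ± 0.19 (limma adjusted p = 0.03). Without shNTC replicate 2, 13 of 26 rose (median 0.75), and without shNTC replicate 1, 0 of 26 (median 0.26). Of 34 genes of G2/M and mitosis 1 rose (2.94%, near the overall share), the checkpoint kinase BUB1B, by 0.75 ± 0.18 (limma adjusted p = 0.034). On shNTC replicate 3 MCM5 was at 9.91 and CDT1 at 9.47, above all 4 shMBD2 arrays.

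Metallothioneins, small metal-binding proteins induced by zinc and stress, had 2 rises among 9 genes of the list (22.2% called, against 3.73% of all genes). MT1X was at 11.57, 11.98, 11.32 and 11.45 under shMBD2, against 10.59 and 8.94 in shNTC and 9.16 on shNTC replicate 3. MT1X rose by 1.81 ± 0.38 (3.52-fold, limma adjusted p = 0.0165). MT2A was at 11.05, 11.62, 10.91 and 10.73, against 10.01 and 9.19 in shNTC and 9.42 on shNTC replicate 3, and rose by 1.47 ± 0.28 (limma adjusted p = 0.0106). Both were above all 3 shNTC arrays. Here shNTC replicate 2, not 1, was the farther control, and without it MT1X had 0.99 (limma adjusted p = 0.105) and MT2A 1.06 (limma adjusted p = 0.059), which did not pass.

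Of the remaining large changes, HINT3, of the histidine triad family, was at 6.64, 6.46, 6.12 and 5.76, against 8.42 and 8.19 in shNTC and 7.45 on shNTC replicate 3, and fell by 2.06 ± 0.25 (limma adjusted p = 0.000703). ROCK1, a kinase of actin contractility, was at 4.72, 4.84, 4.77 and 5.19, against 6.69 and 7.05 in shNTC and 5.66 on shNTC replicate 3, and fell by 1.99 ± 0.26 (limma adjusted p = 0.00104). Both passed in all 25 settings. TAOK1, a kinase of the stress-activated pathways, was detected on no shMBD2 array and was at least 3.09-fold lower there. It met the detection filter only through the shNTC arrays, where it is high. Its limma adjusted p (0.0111) is therefore no separate support. TAOK1 was at 6.26 and 6.07 on the shNTC arrays and at 5.84 on shNTC replicate 3.

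Among the rises, LINC00173, a long non-coding RNA, was at 7.26, 7.46, 7.69 and 7.58, against 5.52 and 6.19 in shNTC and 5.59 on shNTC replicate 3, and rose by 1.64 ± 0.25 (limma adjusted p = 0.00293). FAM111A, a protease that acts at replication forks, was at 9.47, 9.60, 9.59 and 9.48, against 7.41 and 8.19 in shNTC, and rose by 1.73 ± 0.25 (limma adjusted p = 0.0019). On shNTC replicate 3 FAM111A was at 9.50, within the shMBD2 range, while LINC00173 was there below every shMBD2 array.

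Across the 25 alternative settings 8 of the 442 genes passed in every one. SNORA61 and SNORD31 rose, and HINT3, HK2, MBD2, RGS1, ROCK1 and SLC2A1 fell. BHLHE40 passed in all 24 settings that tested it, but it met the detection filter only with the shNTC arrays, so this is no separate support. Genes called both without shNTC replicate 1 and with 3 shNTC arrays and no set term numbered 11, which adds BHLHE40, MT2A and MT1X to those 8.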

How the data were processed

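The authors deposited raw intensities of 12 arrays with no normalization, and, per the file headers, a detection p-value for each probe and array. Their processed intensities, deposited in a second table, served as an alternative. Which software read and normalized the images was not stated in these sources. Both tables name probes differently and were joined by their values (largest distance to the match 0.0692, smallest to any other probe 0.076). Probes without exactly 1 symbol (17984 with none, 8 with several, of 48105) were not named. Values were background-corrected and quantile-normalized with neqc (offset 16) in limma 3.58.1 under R 4.3.3. limma's linear model (5 groups and naming set, 12 arrays, eBayes with trend, two-sided) gave every adjusted p, at a threshold of 0.05. A fold of a gene undetected on every array of a group is a lower bound ("at least"): the other group's mean against the higher of the gene's level and the lowest detected level on each array. The code was tested on simulated data.

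Members and lists were chosen with earlier results of these data known. Named genes are the 4 markers, up to 15 with the largest change each way, up to 5 each way per hairpin, and up to 4 per list by smallest p, plus all methyl-CpG readers and NuRD subunits measured. Other genes of the lists were named for their role. Promoters are RefSeq windows of GRCh38.p14. The alternatives changed the arrays fitted, values, normalization, background, offset, filter, probe rule, trend, block and each array left out.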

Additional observations from a re-analysis of the deposited data

Results flagged for a closer look

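Of 155 named genes 5 (3.23%) had 1 of the 4 shMBD2 arrays far from the other 3, by Dixon's criterion at 95%, and chance flags about 1 in 20. CHD3, a NuRD ATPase, was at 5.73 on shMBD2_A replicate 1 and at 5.14 to 5.21 on the others. CYP51A1, of cholesterol synthesis, was at 5.99 on shMBD2_C replicate 2 and at 5.21 to 5.27 on the others. MTHFD2, a mitochondrial folate enzyme, was at 10.41 on shMBD2_C replicate 2 and at 10.62 to 10.65 on the others. CD38, a plasma cell surface enzyme, was at 9.18 on the same array and at 9.32 to 9.34 on the others. AIF1, a myeloid marker, was at 5.64 on shMBD2_A replicate 2 and at 5.94 to 5.95 on the others. None of the 5 genes passed the limma test of shMBD2 against shNTC.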

How the results depend on the processing

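The 442 genes became 897 with the 6 arrays alone in 2 groups, 3730 with hairpin as a random block (estimated correlation -0.54), 189 with median scaling, 245 with no detection filter and 46 with 3 shNTC arrays and no set term. For hairpin A, 148 genes became 87 with median scaling, 85 with no detection filter, 79 with no intensity trend and 0 with no set term. For hairpin C, 155 became 78, 76, 87 and 3 in the same settings. The other settings that kept every array moved these counts by less than 1.5 times, except the replicate block for hairpin C. Leaving out 1 array gave 29 to 1120 genes for shMBD2, 4 to 766 for hairpin A, 4 to 767 for hairpin C and 0 for A against C. For shMBD2 the counts were 29 and 1120 without shNTC replicates 1 and 2, 182 and 166 without the shMBD2_A replicates, 155 and 138 without the shMBD2_C replicates, 798 and 794 without the shCREM replicates and 284 without shMS4A1 replicate 3. The shCREM and shMS4A1 arrays matter because all groups share 1 estimate of the spread. With the mean of a gene's detected probes RBBP4 turned to -0.03 and TAP2 to -0.32, the cause of which was not tested.

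Same-numbered arrays did not deviate together (correlations of -0.10, -0.01 and -0.03 over genes), so the numbers do not pair the arrays. With the replicate block 354 genes passed for shMBD2, 116 for hairpin A, 103 for hairpin C and 0 between the hairpins.

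With 2 shNTC arrays that differ from each other and from replicate 3, the size of every call rests on few controls, and the control arrays and the hairpin cannot be told apart for genes whose level on replicate 3 lies with shMBD2.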

Other observations

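Some genes outside the groups above also changed. BCL2, the anti-apoptotic protein, was at 8.08, 8.04, 8.0 and 8.31 under shMBD2, against 9.16 and 8.90 in shNTC, and fell by 0.92 ± 0.18 (limma adjusted p = 0.0112). On shNTC replicate 3 it was at 7.97, below every shMBD2 array, and without shNTC replicate 1 BCL2 had -0.79 and did not pass (limma adjusted p = 0.15). TXNIP, an inhibitor of thioredoxin and of glucose uptake, was at 10.06, 9.89, 9.99 and 9.87, against 8.35 and 8.82 in shNTC, and rose by 1.36 ± 0.18 (2.58-fold, limma adjusted p = 0.00118), with 9.88 on shNTC replicate 3. TXNIP had 1.13 without shNTC replicate 1 and did not pass (limma adjusted p = 0.0525). CEBPB and PPP1R15A, of the stress response, fell by 1.08 ± 0.22 and 1.44 ± 0.35 (limma adjusted p = 0.0169 and 0.034). Both leaned on shNTC replicate 1: without it CEBPB had -0.59 and PPP1R15A -0.45, and neither passed (limma adjusted p = 0.276 and 0.38). PPP1R15A was at 8.13, 8.03, 8.01 and 7.93 under shMBD2, against 10.45 and 8.47 in shNTC and 8.17 on shNTC replicate 3, and it passed in 14 of 25 settings.

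2 rises called without shNTC replicate 1 were picked out after their values were seen. MAT2A, the enzyme that makes S-adenosylmethionine, was at 12.08, 12.13, 12.23 and 12.15, against 10.62 and 11.07 in shNTC, and rose by 1.30 ± 0.13 (2.46-fold, limma adjusted p = 0.000146), with 11.96 on shNTC replicate 3. SRSF6, a splicing factor, was at 11.54, 11.54, 11.72 and 11.49, against 10.24 and 10.42 in shNTC, and rose by 1.25 ± 0.14 (limma adjusted p = 0.000517). On shNTC replicate 3 SRSF6 was at 11.86, above every shMBD2 array. Neither MAT2A nor SRSF6 passed with 3 shNTC arrays and no set term.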
